A study of Mus musculus with 3 samples.

Results

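The Krtdap, Sbsn and Dmkn genes lie side by side on mouse chromosome 7 and encode 3 secreted proteins of the suprabasal epidermis: keratinocyte differentiation-associated protein, suprabasin and dermokine. Binding of HDAC3 and KLF4 at this locus was described from the peak lists of a chromatin immunoprecipitation sequencing (ChIP-seq) study. A peak belonged to the locus when the nearest end of a protein-coding gene (GRCm38) was an end of one of these genes, or when its centre lay within 1 kb of such an end. By that rule 4 of 57936 HDAC3 peaks and 10 of 47155 KLF4 peaks belonged to it. The epidermis of the back was taken from E18.5 mouse embryos of wild-type genotype and gave 3 libraries, 1 precipitated with an HDAC3 antibody, 1 precipitated with a KLF4 antibody and 1 input without antibody. All came from the same genotype and age, and the labels do not say how many embryos were pooled. Replicates were lacking, since each antibody had 1 library, and differences between libraries were not tested.

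The outer layers of the epidermis form as basal keratinocytes leave the basement membrane, become spinous and granular cells and are finally cornified. The products of this locus are made in the spinous and granular layers and secreted. Dermokine exists in several isoforms, and a group of short ones starts from a promoter inside the gene. KLF4 is a zinc finger transcription factor of the suprabasal layers that is needed for the skin barrier. HDAC3 is a histone deacetylase that is brought to DNA by NCoR and SMRT corepressor complexes, and the series asks how it acts in epidermal stratification.

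In the RefSeq gene table (GRCm38.p6) Sbsn spans chr7:30732674-30756134, Dmkn spans chr7:30763756-30781066 and Krtdap spans chr7:30787905-30791089. The members together cover 58.4 kb, and all are transcribed in the same direction, on the plus strand. The RefSeq promoter table (GRCm38.p6) placed the Sbsn start at 30751471, well inside the longer span of the gene table, which also takes in part of the neighbouring gene Gapdhs. It placed Dmkn starts at 30763756 and 30763758 and a further one inside the gene at 30776405, and the Krtdap start at 30787905. All 3 members were matched in both tables. The 250 bases upstream of a start are shown for Sbsn, for the upstream and the internal start of Dmkn and for Krtdap, because a KLF4 peak shared bases with each of these windows. They are from RefSeq, plus strand, 5′ to 3′, and capitals mark matches to the motifs named in the text that follows.
Sbsn, chr7:30751221-30751470: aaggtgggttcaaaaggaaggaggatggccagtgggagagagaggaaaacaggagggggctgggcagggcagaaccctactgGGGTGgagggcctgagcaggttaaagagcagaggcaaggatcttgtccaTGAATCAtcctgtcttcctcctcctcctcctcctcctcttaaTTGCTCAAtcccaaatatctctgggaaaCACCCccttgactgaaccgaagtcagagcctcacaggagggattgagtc
Dmkn upstream start, chr7:30763506-30763755: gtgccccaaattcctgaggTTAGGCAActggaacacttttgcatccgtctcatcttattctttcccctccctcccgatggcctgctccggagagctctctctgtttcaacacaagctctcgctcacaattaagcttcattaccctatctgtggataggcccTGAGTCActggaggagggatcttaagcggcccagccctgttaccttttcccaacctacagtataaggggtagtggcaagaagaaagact
Dmkn internal start, chr7:30776155-30776404: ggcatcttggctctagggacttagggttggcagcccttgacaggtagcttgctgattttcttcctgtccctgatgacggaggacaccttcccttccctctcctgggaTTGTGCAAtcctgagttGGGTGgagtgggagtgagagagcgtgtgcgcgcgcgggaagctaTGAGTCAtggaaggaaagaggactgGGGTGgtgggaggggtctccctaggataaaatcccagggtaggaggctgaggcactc
Krtdap, chr7:30787655-30787904: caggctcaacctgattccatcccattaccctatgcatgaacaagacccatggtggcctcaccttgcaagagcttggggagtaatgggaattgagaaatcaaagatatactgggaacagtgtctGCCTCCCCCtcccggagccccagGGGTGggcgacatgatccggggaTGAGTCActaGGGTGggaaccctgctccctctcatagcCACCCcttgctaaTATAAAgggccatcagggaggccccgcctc

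Peak heights are given as the score of the authors' caller, a position-adjusted tag number that was used to rank peaks within a list. The tag signal is the number of tags in a peak per 10000000 tags of its library. Depth was 56787485 tags for HDAC3, 3.95% of them in peaks, and 61432711 tags for KLF4, 6.81% of them in peaks. Among marker genes of cell types, 3 of 8 keratinocyte genes had an HDAC3 peak within 1 kb of an end (18.9% of all protein-coding genes did) and 4 of 8 had a KLF4 peak (23.1%). None of 4 endothelial genes had either, and of 4 muscle genes 1 had a KLF4 peak and none an HDAC3 peak. For melanocyte genes the counts were 2 of 5 for each factor, for fibroblast genes 2 and 1 of 5, and for immune genes 1 of 5 for each. A peak is not a measure of expression, so these counts do not settle the cell types in the tissue.

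KLF4 occupied the locus as a string of high peaks that ran from upstream of Sbsn to the Krtdap start, with a peak at the start of every member. From the pair of peaks upstream of the Sbsn start to the Krtdap promoter there were 10 KLF4 peaks in 37.8 kb, with scores from 170 to 503 and a median of 287. These are not the 10 peaks of the assignment rule. They take in that pair (271 and 364), which the rule left out, and not the assigned peaks beyond Krtdap (73 and 120). The median score of the whole KLF4 list was 65. HDAC3 had a peak at only 2 of the 4 places where a member starts, at Sbsn and at Krtdap, and none across Dmkn.

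**Figure D1:**
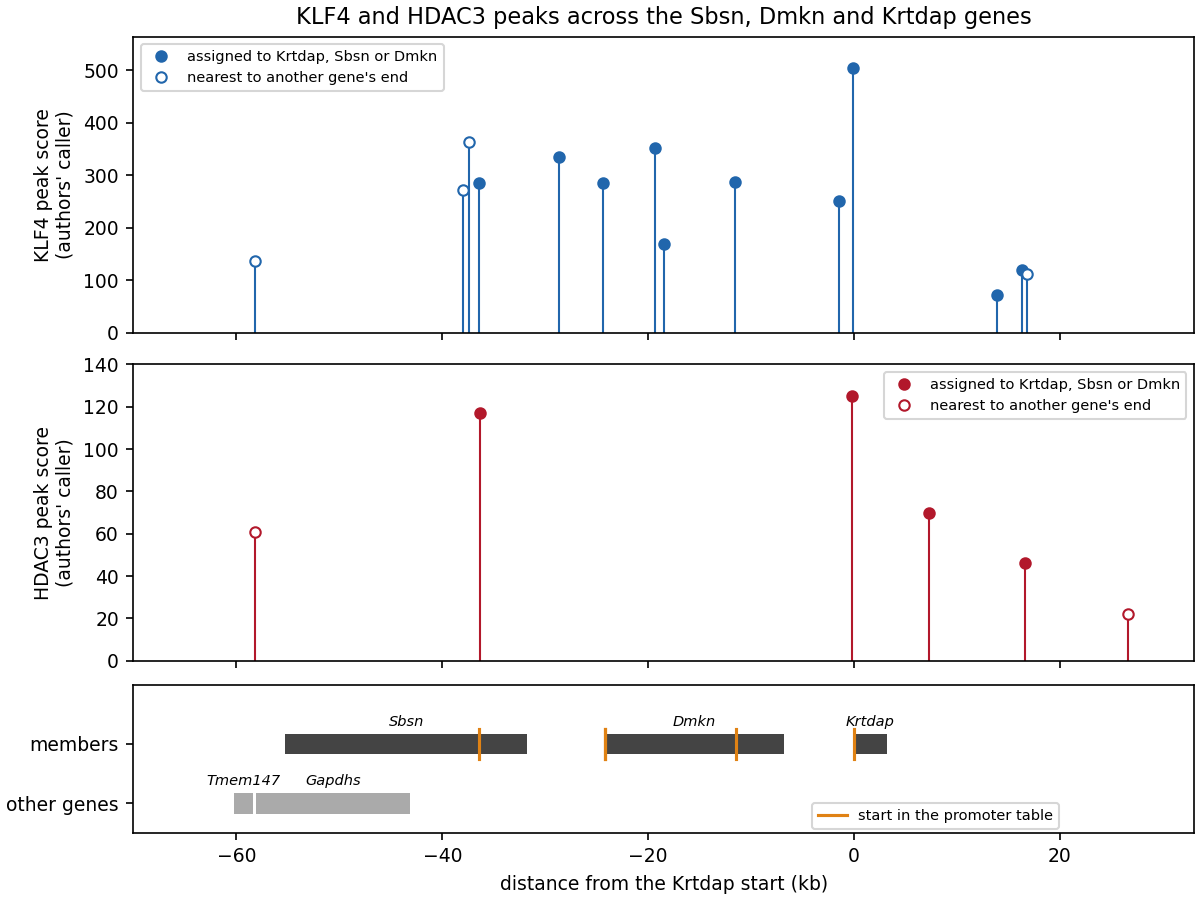
KLF4 (top) and HDAC3 (middle) peaks by distance in kb from the Krtdap start, with the score of the authors' caller as height; filled points were assigned to Krtdap, Sbsn or Dmkn and open points lay nearest to the end of another gene. Bars at the bottom are genes and orange lines are starts in the promoter table. KLF4 peaks of score 170 to 503 run from upstream of the Sbsn start to just before the Krtdap start. HDAC3 peaks stand at the Sbsn and Krtdap starts. Lower HDAC3 peaks lie beyond Krtdap (70 and 46, filled, and 22, open) and at an end of Gapdhs (61, open).

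By score, Krtdap carried the highest peak of each factor in the locus, both just upstream of its start. The HDAC3 peak at the Sbsn start was slightly higher by tag signal (28.4 against 27.6) and by fold over input (11.3 against 11.1). By fold over input, the KLF4 peak at the upstream Dmkn start was also slightly higher (34.2 against 33.5). The Krtdap KLF4 peak at chr7:30787678-30787862 scored 503, with a tag signal of 96.5, 33.5-fold over input and 8 input tags. It was centred 135 bp upstream of the Krtdap start. Only 132 of 47155 KLF4 peaks scored higher. The Krtdap HDAC3 peak at chr7:30787621-30787805 scored 125, with a tag signal of 27.6, 11.1-fold over input and 7 input tags. It was centred 192 bp upstream of the Krtdap start. Of 57936 HDAC3 peaks, 299 scored higher. The peaks were thus among the highest of their lists by score, but by fold over input the HDAC3 peak stood at the 74.0th percentile of its list and the KLF4 peak at the 94.9th. The centres were 57 bp apart and the intervals shared 128 bp. Across all 14967 overlapping pairs of the lists, the median distance was 31 bp, and 26.5% of pairs were at least as far apart as this one.

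Another KLF4 peak stood 1439 bp upstream of the Krtdap start, at chr7:30786374-30786558, with a score of 251 and 24.5-fold over input. It had no HDAC3 peak nearer than 1247 bp. Downstream of Krtdap the peaks were lower. An HDAC3 peak of score 70 lay at chr7:30795110-30795294, 4113 bp beyond the gene, and the nearest KLF4 centre was 6554 bp away from it. A KLF4 peak of score 73 lay 10667 bp beyond the gene. The outermost peaks assigned to Krtdap were a KLF4 peak of score 120, 13160 bp beyond the gene, and an HDAC3 peak of score 46, 13450 bp beyond it.

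Sbsn carried both factors at its start in the promoter table, though at neither of its annotated gene ends. The KLF4 peak at chr7:30751351-30751535 scored 286, was 13.5-fold over 10 input tags and was centred 28 bp upstream of the start. The HDAC3 peak at chr7:30751516-30751700 scored 117, was 11.3-fold over 7 input tags and was centred 137 bp downstream of the start, inside the gene. Whether that position is exonic was not analysed here. These centres lay 165 bp apart, so the peaks touched in 20 bp only, and just 1.21% of all overlapping pairs were as far apart or farther. At Sbsn, KLF4 was therefore centred next to the start and HDAC3 beyond it, whereas both lay upstream at Krtdap. The other KLF4 peak of Sbsn, at chr7:30759104-30759288, lay 3062 bp beyond the gene towards Dmkn and scored 335, with 20.5-fold over input.

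Dmkn carried 4 KLF4 peaks and no listed HDAC3 peak. The peak at chr7:30763423-30763607, centred 241 bp upstream of the upstream start, scored 286 and was 34.2-fold over input. The peak at chr7:30776205-30776389, centred 108 bp upstream of the internal start, scored 288 and was 15.4-fold over input. KLF4 thus had a peak at both places where Dmkn transcripts start. Between these, inside the gene, lay a peak of score 352 and 24.3-fold over input at chr7:30768521-30768705 and one of score 170 and 20.1-fold over input at chr7:30769315-30769499.

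**Figure D2:**
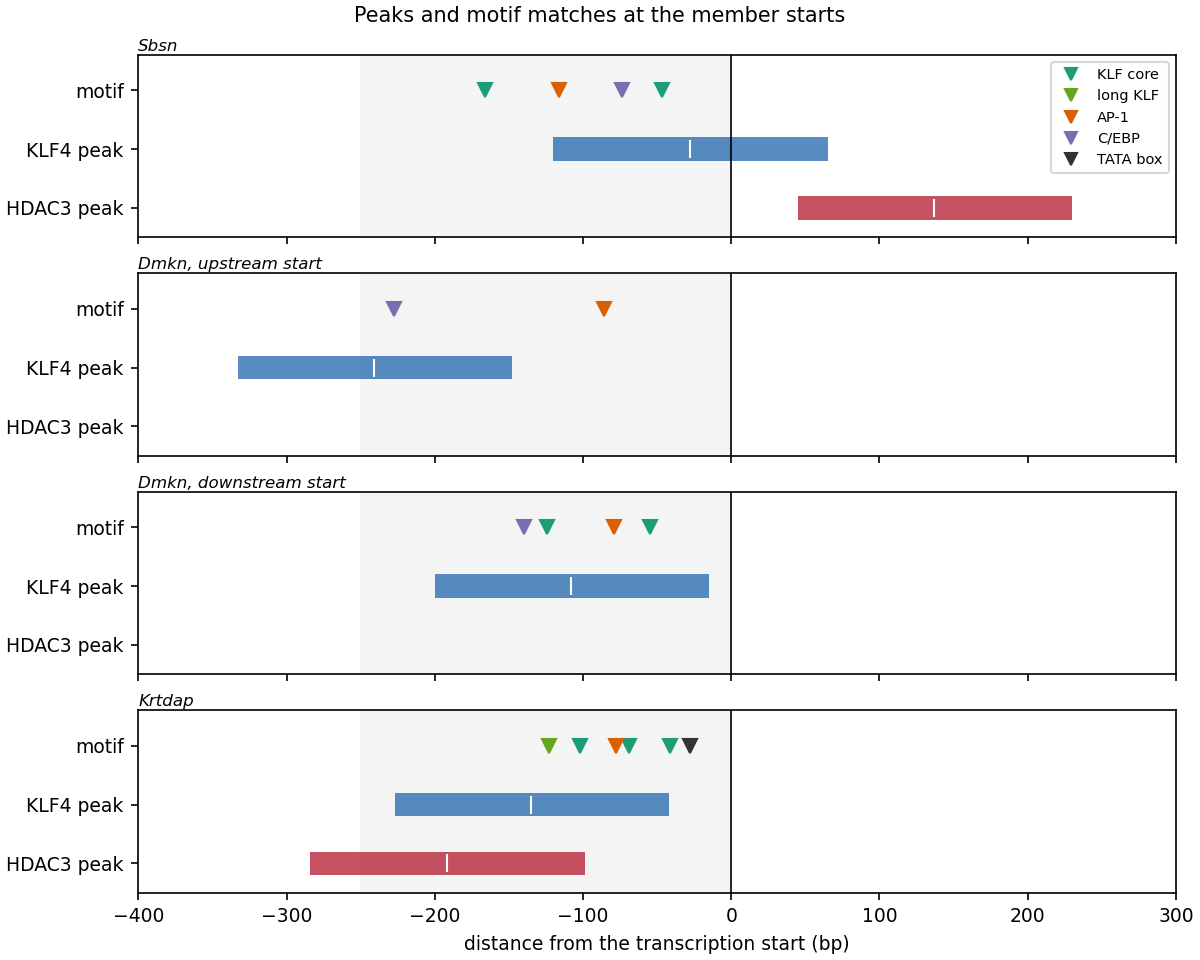
KLF4 (blue) and HDAC3 (red) peak intervals, white ticks at their centres, and motif matches (triangles) by distance in bp from 4 member starts; the grey band is the 250 bases searched. KLF4 peaks reach into every band, and HDAC3 peaks are present at Krtdap, upstream of the start, and at Sbsn, downstream of it.

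The KLF4 string made the locus dense in peaks, and HDAC3 peaks were fewer. The span of the members with 10 kb on each side, 78.4 kb, held 11 KLF4 peaks. Of 34696 tiles of that length laid end to end along the chromosomes, 0.53% held as many KLF4 peaks or more, and the median tile held 0. The same span held 4 HDAC3 peaks. These 4 and the 11 KLF4 peaks are not the sets of the assignment rule. The span took in the site at an end of Gapdhs (61 for HDAC3, 137 for KLF4) and the KLF4 pair upstream of the Sbsn start. It left out assigned peaks beyond Krtdap (46 for HDAC3, 73 and 120 for KLF4). As many HDAC3 peaks or more were held by 17.5% of tiles. That HDAC3 share depended on the window: it was 33.2% without a margin, 7.79% with 25 kb on each side and 7.10% for the higher-scored 50% of the list. The KLF4 share was below 0.53% in each of these settings, at 0.178%, 0.235% and 0.141%. The locus window was fitted to the member ends, whereas tiles lay on a fixed grid regardless of gene content and could split other clusters. Windows fitted to other genes were not compared, so these shares may overstate how rare such a density is. By single genes the counts were less unusual. Krtdap and Dmkn had 4 KLF4 peaks each (19.2% of protein-coding genes were nearest to at least 4), and Sbsn had 2 (39.3% had at least 2). For HDAC3, Krtdap had 3 peaks (31.2% of genes had at least 3) and Sbsn had 1 (64.8% had at least 1).

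At gene ends, within 1 kb of either end, 1 of 3 members (Krtdap) had an HDAC3 peak, against 18.9% of all 21887 protein-coding genes. A KLF4 peak was found there at 2 of 3 members (Krtdap and Dmkn), against 23.1% of genes, and both factors at 1 of 3, against 10.3%. Around starts in the promoter table the counts were 2 of 3 for HDAC3 (15.9% of 17492 genes with a start), 3 of 3 for KLF4 (21.3%) and 2 of 3 for both (9.06%). The difference comes from Sbsn, whose annotated lower end lies far from its start in the promoter table. Krtdap stood near the top of the genes with a gene-end peak: 34 of 4143 such genes scored as high for HDAC3 and 18 of 5051 for KLF4, with Krtdap counted in both.

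Of the 4 HDAC3 peaks in the locus, 2 shared at least 1 bp with a KLF4 peak, against 25.8% of the whole HDAC3 list. Of the 10 KLF4 peaks, 2 did so with an HDAC3 peak (exact Clopper-Pearson 95% interval of the share 2.52 to 55.6%, counting error only), against 31.7% of the whole KLF4 list. Between the centres of the HDAC3 peaks at the Sbsn and Krtdap starts, 36.1 kb apart, stood 6 KLF4 peaks without HDAC3, with scores from 170 to 352 and the nearest HDAC3 centre 1247 to 17799 bp away. Among all 4328 KLF4 peaks of that score range, a range chosen after these scores were seen, 65.5% overlapped an HDAC3 peak (64.1 to 66.9). The stretch was set between neighbouring HDAC3 peaks, and only KLF4 peaks without overlap were counted in it. Their lack of overlap was thus fixed by that choice and cannot be set against this share. The KLF4 peak at the Sbsn start, of score 286, lay just outside the stretch and overlapped an HDAC3 peak. A site without a listed HDAC3 peak is not shown to lack HDAC3, and why none was listed in this stretch was not tested.

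The authors' caller kept a peak only when its tags were at least 4-fold above the surrounding 10 kb. Dividing the tag signal of a peak by its fold over that region gave the tag level per peak width around it. Around the HDAC3 peak at the Sbsn start this level was 6.57 per 10000000 tags, 6.90 times the median of the HDAC3 list, and only 8 of 57936 peaks had a higher one. Around the Krtdap promoter it was 6.16, and 11 HDAC3 peaks had a higher one. At these levels a peak needed a signal of 26.3 beside the Sbsn start, and 24.6 beside the Krtdap start, to pass this local rule. Of all listed HDAC3 peaks, 99.1% and 98.8% were lower than that. The listed HDAC3 peaks themselves passed narrowly, with folds over the local region of 4.32 at Sbsn and 4.48 at Krtdap, where the list had a median of 5.71. The HDAC3 level around Dmkn itself could not be read from the list, since no HDAC3 peak was called there. The caller also required at least 4-fold over input. Of 315415 putative HDAC3 peaks in the whole library, 58228 were filtered by local signal and 199186 by input. The assigned HDAC3 peaks beyond Krtdap were 5.59-fold and 4.24-fold over input, against 11.3-fold and 11.1-fold at the Sbsn and Krtdap starts. Which rule acted on other sites of the locus was not tested.

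KLF4 tags were likewise raised throughout the locus. The 8 KLF4 peaks from the Sbsn start to the Krtdap start that were assigned to members had local levels from 6.95 to 11.0, where the list had a median of 1.30. The peak 1439 bp upstream of the Krtdap start was exceeded by only 4 KLF4 peaks of the list in this measure, and it passed the local rule with a fold of 4.01. Around the 2 KLF4 peaks beyond Krtdap the level was 2.94 and 2.64. Peaks inside the 10 kb raise the level around their neighbours, so a string of peaks and a broad rise cannot be told apart in this value. Input tags were also more numerous at the locus: its HDAC3 peaks had 6 to 7 (list median 2) and its KLF4 peaks 2 to 10 with a median of 7 (list median 3). The part of the input in these levels was not tested.

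**Figure D3:**
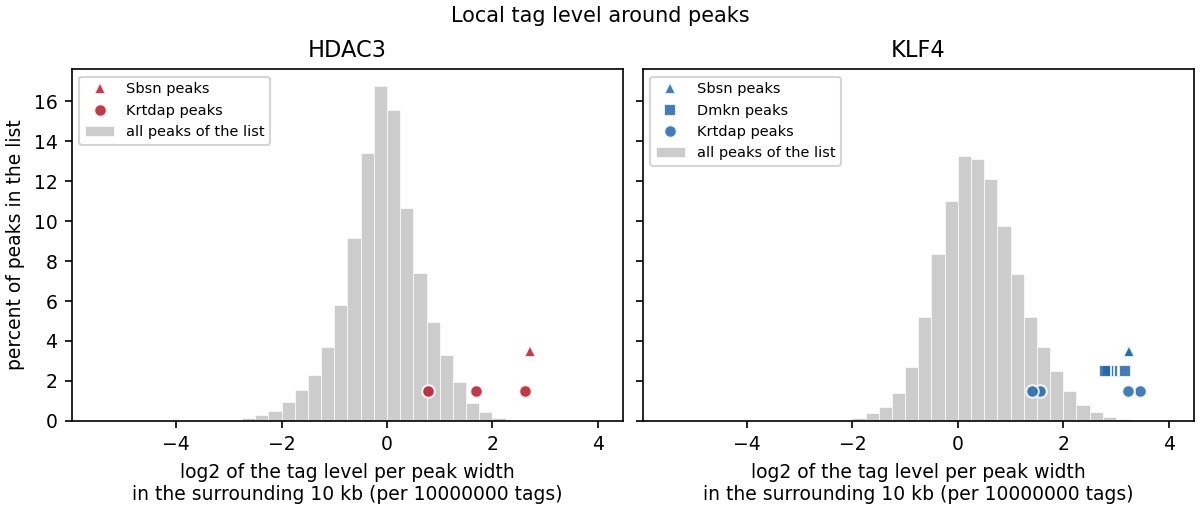
Percent of all peaks (grey bars) by log2 of the tag level per peak width in the surrounding 10 kb, for HDAC3 (left) and KLF4 (right); symbols mark the peaks of Sbsn, Dmkn and Krtdap, at heights set for legibility. The peaks from Sbsn to the Krtdap promoter lie at the extreme right of both lists. Those beyond Krtdap lie further left, but still above the median of their list.

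The lists also describe the shape of each peak. The focus ratio is the fraction of tags that lie on the side of the peak centre where their strand should be, and it is lower for wide or compound peaks. HDAC3 peaks at the Sbsn and Krtdap starts had 0.657 and 0.652, at the 10.8th and 9.98th percentile of a list with a median of 0.781. Of the HDAC3 peaks beyond Krtdap, the one of score 70 had 0.798, above that median, and the one of score 46 had 0.624. KLF4 peaks at the starts had 0.665 at Sbsn, 0.660 and 0.667 at the upstream and internal start of Dmkn and 0.722 at Krtdap, against a list median of 0.769. Of the other KLF4 peaks, 3 were above the list median: those of score 352 and 170 inside Dmkn, with 0.855 and 0.776, and the one of score 73 beyond Krtdap, with 0.798. The remaining 3 lay between 0.610 and 0.724.

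Motif matches were then read in the windows printed earlier. Motifs searched on both strands were CACCC and GGGNGNGGC for KLF factors, TGANTCA for AP-1, TTGCNNAA for C/EBP factors, AACCNGTT for grainyhead-like factors and TATAAA for the TATA box. AP-1, the dimer of Fos and Jun proteins, had 1 match in each of the 4 windows, between 119 and 75 bp upstream of the start, and TGANTCA occurs in 6.13% of 21263 such windows of protein-coding genes. In 3 of these windows the match lay inside the KLF4 peak, and at the upstream start of Dmkn it did not. The letters were TGAATCA at Sbsn and TGAGTCA in the Dmkn and Krtdap windows. At Sbsn a further AP-1 match spanned the start itself, from 6 bp upstream to the first transcribed base. The share of windows with TGANTCA was 8.53% (7.34 to 9.84) among the 2005 that shared bases with a KLF4 peak and 11.6% (9.34 to 14.2) among the 697 that shared bases with peaks of both factors.

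CACCC had 3 matches at Krtdap, 2 of them wholly inside the KLF4 peak, 2 at Sbsn with 1 inside the peak, 2 at the internal start of Dmkn, both inside the peak, and none in the window of the upstream Dmkn start. A further CACCC match at Sbsn lay past the window, from 5 to 9 bp downstream of the start, inside the KLF4 peak. CACCC is a common string, present in 54.2% of all windows. Among those that shared bases with a KLF4 peak, the share was 62.0% (59.9 to 64.2). The longer KLF string matched at Krtdap alone, from 127 to 119 bp upstream of the start, where both the HDAC3 and the KLF4 peak cover it (29.1% of all windows hold one). C/EBP matched once at Sbsn and once at each Dmkn window (9.09% of all windows) and not at Krtdap, and TATAAA matched at Krtdap alone, from 30 to 25 bp upstream of the start (11.6%). No window held the grainyhead-like string, which 1.70% of all windows do. The long and the short KLF string can overlap elsewhere but shared no base in these windows. A match describes letters in the reference and says nothing on whether a factor bound there.

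Other genes of the differentiating epidermis were read in the same way at their ends. Of 25 genes for secreted suprabasal and cornified-layer proteins, 14 had an HDAC3 peak (all genes 18.9%), 17 a KLF4 peak (23.1%), 11 both (10.3%) and 5 neither. Their gene-end peaks had median scores of 54 for HDAC3 and 190 for KLF4, against 30 and 73 over all genes with such peaks. Of 20 cornified envelope genes, 15 had HDAC3, 13 KLF4 and 13 both, with median scores of 57 and 119. Of 15 early suprabasal genes only 3 had HDAC3, near the share over all genes, 7 had KLF4 and 2 had both. The lists overlap: the 2 with both, Dsg1a and Dsc1, were also counted among the secreted suprabasal and cornified-layer genes.

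Of the list genes with both factors, the 8 with the highest sum of score percentiles over the 2 factors are named here, and Krtdap scored above each of them in both. In that order they began with Tgm1, the transglutaminase that cross-links the envelope (HDAC3 92, KLF4 293), the small proline-rich protein gene Sprr1a (93 and 248) and Evpl, which encodes the scaffold protein envoplakin (81 and 282). Ly6g6c had 75 and 304, and the desmocollin gene Dsc1 had 72 and 285. Klk7, a protease of corneocyte shedding, had 67 and 312, and Cdsn, which encodes corneodesmosin, had 72 and 233. Lor, the gene of the envelope protein loricrin, had 74 and 210. By the distance between log2 scores of gene-end peaks in the 2 libraries, the genes most like Krtdap among the 2250 with both factors were Tet3 (124 and 521), then 4930432K21Rik and Cc2d1a, which had the same scores (129 and 486). Measured at starts, Sbsn (117 and 286) was most like Crybg2 (126 and 284), Csrnp1 (108 and 282) and Hopx (119 and 312).

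**Figure D4:**
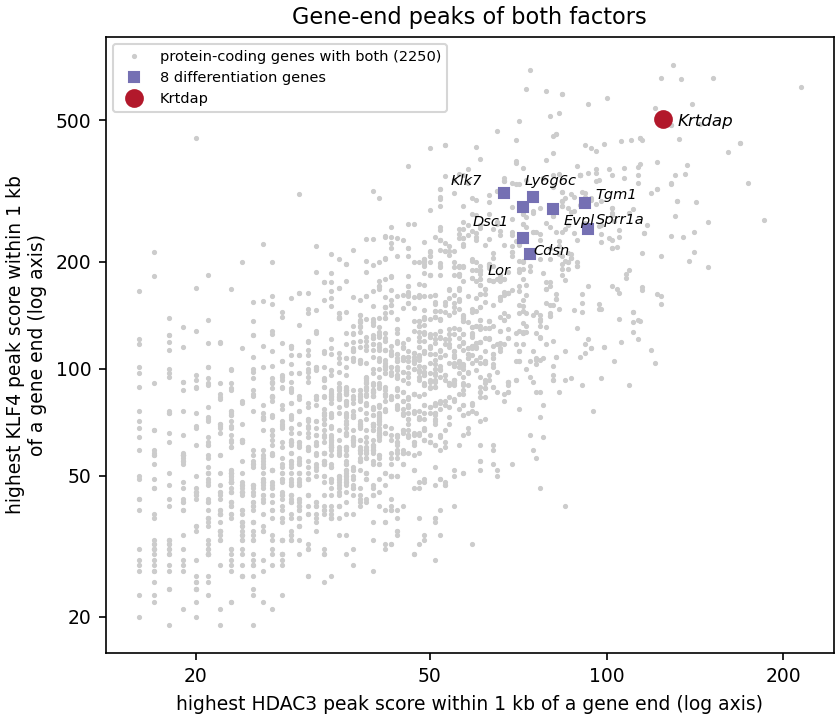
Highest HDAC3 score (horizontal, log axis) against highest KLF4 score (vertical, log axis) within 1 kb of a gene end, for the 2250 protein-coding genes with both (grey), 8 differentiation genes (squares) and Krtdap (circle). Krtdap, at 125 and 503, lies above and to the right of the 8 differentiation genes.

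Peaks just inside and just outside the rule were as follows. The HDAC3 peak of score 46 beyond Krtdap was assigned by 42 bp, since the nearest end of Ffar2 was 13492 bp away. The KLF4 peak of score 113 at chr7:30804655-30804839, which flanks it, went to Ffar2 because Ffar2 was 13284 bp and Krtdap 13658 bp away. The KLF4 peaks of score 364 and 271 upstream of the Sbsn start, at chr7:30750364-30750548 and chr7:30749829-30750013, were left out because an end of Gapdhs was nearer, by 13 and 1083 bp. They lay 1015 and 1550 bp upstream of the Sbsn start, inside the Sbsn span of the gene table, and were 30.9-fold and 66.5-fold over input.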

How the data were processed

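HDAC3 and KLF4 ChIP peak lists from epidermis were analysed, 1 library each, and grouped by the sample titles. The tools named in the submitters' processing notes are HOMER, STAR and bcl2fastq, on GRCm38.p5 (versions not given in the sources used here). Peaks of 185 bp were called, per the file headers, in factor style, unpooled, against 1 input, with at least 4-fold over input and over the surrounding 10 kb, a Poisson p of 1e-04 and a false discovery rate of 0.001. The input library entered only through the values in the lists.

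The deposited tag signal is per 10000000 tags, and the deposited input tags write 0 as 0.5. The score, the fold ratios and the fraction called focus ratio are the authors' caller's own values per peak, and so are the deposited p-values, which were not used. Versions: Python 3.11.15, pandas 2.3.3 and scipy 1.17.1. Peaks were placed on RefSeq tables of GRCm38.p6 by their centres, and an overlap meant centres at most 184 bp apart. The assignment and motif searches were tested on simulated data. The named genes were the members, neighbours within 100 kb, the 3 genes most like a member with both factors at a gene end, and up to 8 list genes with both factors. Genes were matched by symbol only. Il36rn had no entry under that symbol in the gene table and was not counted, and other symbols for it were not searched. Members and lists were chosen with earlier results of these data known. The likeness at starts was chosen after seeing the data. Alternatives varied the assignment, the windows, the overlap, the tile length, the height measure and the peaks kept.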

Additional observations from a re-analysis of the deposited data

How the results depend on the processing

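Of 54 values under alternative settings, 35 stayed within the limits set (1.5 times for counts, the exact 95% interval for shares) and 19 moved. Assignment by the nearest start in the promoter table, added after seeing the data, gave 3 HDAC3 and 12 KLF4 peaks. With peaks at least 8-fold over input the locus kept 2 HDAC3 peaks, those at the Sbsn and Krtdap starts. With an overlap of at least 50% of the width, 1 HDAC3 and 1 KLF4 peak overlapped, since the Sbsn pair shares 20 bp. With centres at most 500 bp apart in place of overlap, 3 HDAC3 and 3 KLF4 peaks were counted. Members with HDAC3 at a gene end numbered 2 within 5 kb and 2 around starts, in place of 1. The share of tiles with as many HDAC3 peaks was 33.2% without a margin, 7.79% with 25 kb and 7.10% for the higher-scored 50% of the list, so its rank depends on the window. For KLF4 it was 0.178%, 0.235% and 0.141% in the same order, and 0.0807% at 8-fold over input. With fold over input as the height, percentiles were 74.0 (Krtdap) and 75.9 (Sbsn) for HDAC3, and 94.9 (Krtdap), 86.4 (Sbsn) and 90.1 (Dmkn) for KLF4. With tag signal they were 99.2 for Krtdap HDAC3 and 98.6 for Dmkn KLF4. Few input tags per peak make the fold imprecise, and the cause of these shifts was not tested. No paired analysis was possible because each antibody had 1 library and the labels give no replicate numbers.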

Other observations

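Of 11 other protein-coding genes with an end within 100 kb of a member end, 2 had an HDAC3 peak within 1 kb of an end, near the share of 18.9% over all protein-coding genes, and 5 had a KLF4 peak (23.1% of all). Tmem147 and Gapdhs, whose facing ends are close together, shared 1 site of both factors, with a score of 61 for HDAC3 and 137 for KLF4 and centres 18 bp apart. Rbm42 (63), Ffar2 (64) and Ffar1 (53) had KLF4 alone, and all of these KLF4 scores were below the lowest score of 170 in the string of peaks from Sbsn to Krtdap. The shared site of 137 scored above the KLF4 peaks assigned to Krtdap beyond the gene, at 73 and 120.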
